A study of Mus musculus with 9 samples.

Results

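The adipocyte and lipogenic genes were followed in the pancreas of mice with experimental acute pancreatitis. The set was given by name and holds 34 genes, of which 33 had a row among the 17132 genes of the deposited table. Ucp1, the uncoupling protein of brown fat, was not analysed here. Bulk messenger RNA was sequenced from the pancreas of 9 C57BL/6 mice, 3 in each group. The QYD mice received 7 hourly intraperitoneal injections of caerulein, with lipopolysaccharide (LPS) added to the last, and were given the herbal Qingyi Decoction at 0 h and 8 h. The Model mice received the same caerulein and LPS with saline in place of the decoction. The Control mice received saline injections and saline treatment. Pancreas was taken 24 h after the first injection in all 3 groups, and sex and age were not given in the sources used here.

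White adipocytes store triglyceride in a single large droplet, coat it with perilipins and CIDE proteins, and secrete hormones such as adiponectin and leptin. Fatty acids enter through lipoprotein lipase and CD36 or are built from citrate by ATP citrate lyase, acetyl-CoA carboxylase and fatty acid synthase, and they leave by a chain of lipases. In the pancreas, adipocytes lie between the lobules and around the organ, and lipase released in pancreatitis is known to digest this fat. Several of the genes are also active in other cells: Fabp4 and Cd36 in endothelium and macrophages, and the enzymes of fatty acid synthesis in most cells.

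Each library held 19112923 to 20212744 estimated counts, so the totals were nearly equal. The composition was not: the 10 acinar marker genes together held 328590 to 361039 CPM of the library total in the QYD mice, 330619 to 374946 in the Model mice and 582100 to 599889 in the Control mice, which fits the label of the tissue. Levels are therefore given after TMM scaling, as CPM in what follows, a scaling that sets the bulk of all genes equal between libraries. The same fold changes per library total are higher by 2.15 on the log2 scale in Model versus Control and by 2.03 in QYD versus Control, and are given beside the TMM values. In QYD versus Model the shift was -0.12. A difference was called at an adjusted p under 0.05 by the quasi-likelihood test of edgeR, with p-values adjusted after Benjamini and Hochberg over all 12828 genes tested. Values are listed in the order of mouse numbers, 65, 66 and 68 for QYD, 56, 57 and 59 for Model, and 43, 44 and 45 for Control. Statements on which libraries lay above or below others refer to the TMM scale unless the library total is named. In bulk tissue, fewer cells of a type and less RNA per cell cannot be told apart.

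Of the 33 genes in the table, 29 had counts high enough to be tested, and Adrb3, Aqp7, Slc2a4 and Sncg did not. In Model versus Control, 3 of the 29 were higher (Cidea, Pnpla2 and Dgat2) and 13 were lower (Adipoq, Rbp4, Cidec, Mgll, Lpl, Acsl1, Thrsp, Fasn, Scd1, Pck1, Gpd1, Car3 and Cyp2e1), where 21.3% of all tested genes were called higher and 21.3% lower. The genes called lower were thus 44.8% of the tested members and those called higher 10.3%. The median log2 fold change of the 29 was -0.74, against 0.04 over all tested genes. Per library total, 16 of the 29 were called higher and 4 lower, against a background of 94% and 0.943%, and the median was 1.43 against 2.19 over all genes. Lpl, Pck1, Car3 and Cyp2e1 were called lower, and Cidea, Pnpla2 and Dgat2 higher, on both scales. Of these, Cidea passed the filter on low counts only through the QYD and Model libraries, where it is high. In QYD versus Control the same 3 genes were higher and 10 were lower, against a background of 20.5% and 20.3% (40.7% in either direction), with a median of -0.47 against 0.06. Adipoq, Cidec and Gpd1 passed in Model versus Control but missed the threshold in QYD versus Control, where Gpd1 passed with RLE scaling (adjusted p = 0.0458) and DESeq2 (adjusted p = 0.0495), and Adipoq (adjusted p = 0.0399) and Cidec (adjusted p = 0.0462) when only the 2 groups compared were fitted. Both comparisons share the 3 Control libraries. In QYD versus Model none of the 29 was called, and neither was any other gene (0%).

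**Figure D1:**
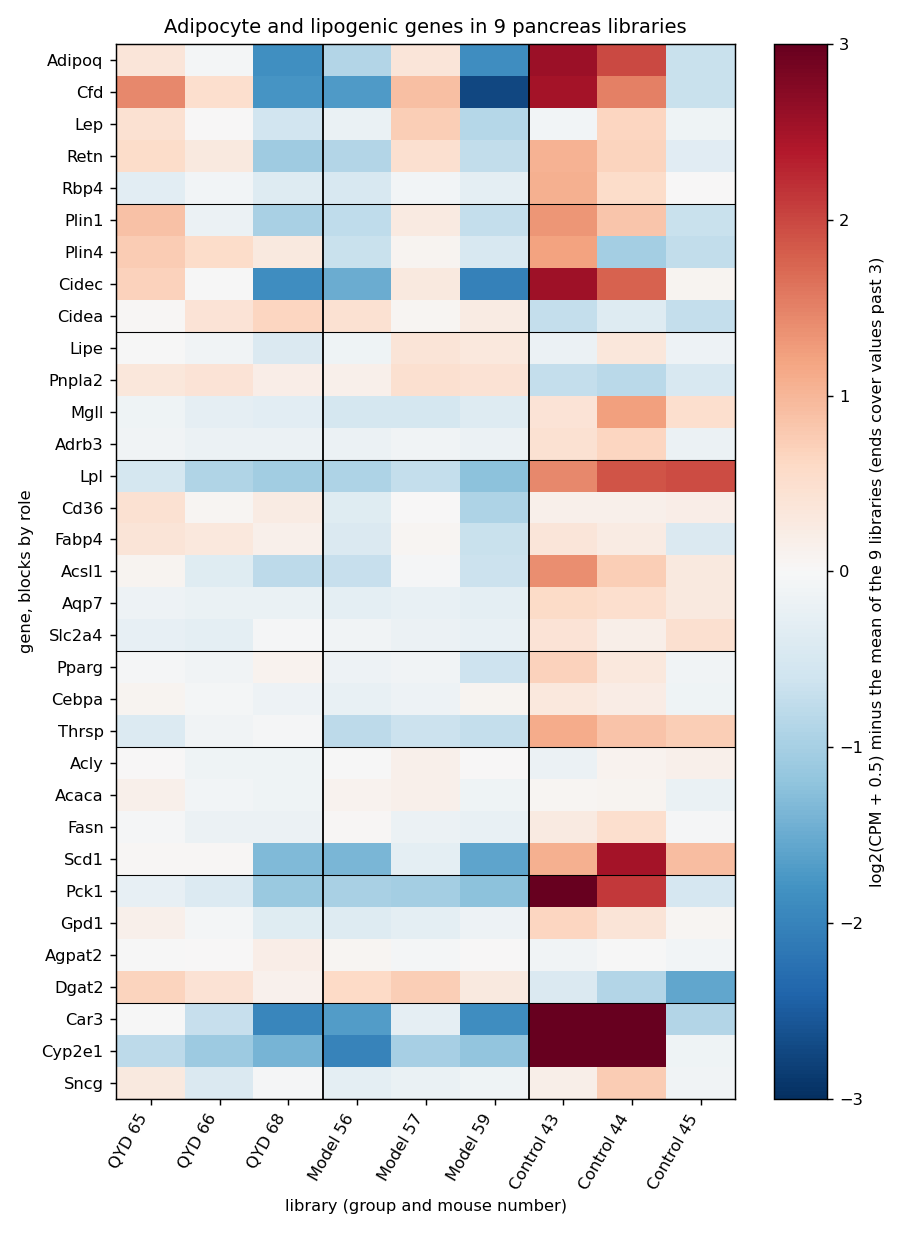
Level of each of the 33 genes of the set with a row, including the untested Adrb3, Aqp7, Slc2a4 and Sncg, in each of the 9 libraries. Values are log2(CPM + 0.5) minus the mean of that gene over the libraries, with the QYD, Model and Control libraries from left to right. Lpl, Scd1, Pck1, Car3 and Cyp2e1 have their highest libraries in Control, Pnpla2 and Dgat2 are lowest there, and Adipoq, Cfd and Plin1 differ as much between libraries of 1 group as between groups.

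The secreted products of adipocytes were low and uneven. Adipoq, which encodes adiponectin (chr16:23146536-23157968 on GRCm38.p6), had 2.34, 1.61 and 0.112 CPM in the QYD mice, 0.687, 2.32 and 0.103 CPM in the Model mice and 12.6, 8.15 and 0.89 CPM in the Control mice. The same libraries held 80, 48 and 3 estimated counts in the QYD mice, 24, 78 and 3 estimated counts in the Model mice and 90, 64 and 7 estimated counts in the Control mice. Control 43 and Control 44 stood above every other library, while Control 45 lay below QYD 65, QYD 66 and Model 57, so the groups overlapped. The log2 fold change of Adipoq in Model versus Control was -2.76 ± 0.99 (SE, adjusted p = 0.0429), and -0.55 per library total (adjusted p = 0.578). Between QYD and Control it was -2.37 ± 0.97 (SE, adjusted p = 0.0719), and -0.24 per library total (adjusted p = 0.805). The Model versus Control call was lost without Control 44, Model 56, Model 59, QYD 65, QYD 66 or Control 43, the last at -2.10 (adjusted p = 0.178), and the value was -4.09 (adjusted p = 0.0155) without Model 57. The QYD comparison passed without Control 45 at -2.89 (adjusted p = 0.0297) and without Model 57 at -2.36 (adjusted p = 0.0454). For Model versus Control, DESeq2 gave Adipoq an adjusted p of 0.0891 and limma-voom 0.108.

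Cfd, the complement protease adipsin, was the most abundant secreted product of the set per transcript length, at 47.4 ± 43.5 FPKM in QYD, 25.2 ± 32.2 FPKM in Model and 21.9 ± 17.5 FPKM in Control (SD, n = 3 each; FPKM is scaled to the library total). It had 41.5, 21.4 and 4.1 CPM in the QYD mice, 4.32, 28.5 and 1.83 CPM in the Model mice and 87.8, 44.2 and 9.28 CPM in the Control mice. Within every group the libraries stood in the same order as for Adipoq, and the groups overlapped. Cfd was not called in Model versus Control at -2.02 ± 1.02 (SE, adjusted p = 0.136), and 0.21 per library total (adjusted p = 0.831). Without Model 57 it was called, at -3.91 (adjusted p = 0.0134). In QYD versus Control the value was -1.07 ± 0.99 (SE, adjusted p = 0.416), and 1.11 per library total (adjusted p = 0.268). Rbp4, the carrier of retinol in blood, had 0.614, 0.804 and 0.559 CPM in the QYD mice, 0.487, 0.804 and 0.621 CPM in the Model mice and 2.38, 1.53 and 0.89 CPM in the Control mice. These levels rest on 15 to 24 estimated counts in QYD, 17 to 27 in Model and 7 to 17 in Control. Each Control library lay above every Model and QYD library, Control 45 with 7 counts by little. Per library total the Model libraries lay above the Control libraries and the QYD libraries overlapped with them. Its log2 fold change was -1.31 ± 0.40 (SE, adjusted p = 0.0213), and 0.84 per library total (adjusted p = 0.0707) in Model versus Control. The QYD versus Control value was -1.26 ± 0.40 (SE, adjusted p = 0.0265), and 0.77 per library total (adjusted p = 0.0929). The first call was lost without Model 56 or without Control 43, where it stood at -0.92 (adjusted p = 0.123), and the second without Control 43, Control 44, QYD 65 or QYD 68.

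Lep, the satiety hormone leptin, and Retn, the hormone resistin, were near the limit of detection. Lep had 4 to 28 estimated counts per library in QYD, 1 to 37 in Model and 3 to 8 in Control, and Retn had 1 to 39 in QYD, 4 to 36 in Model and 3 to 13 in Control. Neither was called, with log2 fold changes of -0.28 ± 0.97 (SE, adjusted p = 0.837) for Lep and -1.32 ± 1.02 (SE, adjusted p = 0.322) for Retn in Model versus Control, where both were positive per library total at 1.87 and 0.84. Without Model 57, Retn passed at -2.97 (adjusted p = 0.0495).

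The droplet coat genes did not move as one. Plin1, the perilipin that gates lipolysis in white fat, had 1.32, 0.369 and 0 CPM in the QYD mice, 0.0859, 0.685 and 0.103 CPM in the Model mice and 1.96, 1.27 and 0.127 CPM in the Control mice. QYD 68 held 0 estimated counts of it and QYD 65 lay above every Model library, so both groups overlapped with Control. On the log2 scale it differed by -1.89 ± 1.18 (SE, adjusted p = 0.224), and 0.27 per library total (adjusted p = 0.817) in Model versus Control, and by -0.92 ± 1.11 (SE, adjusted p = 0.533), and 1.21 per library total (adjusted p = 0.282) in QYD versus Control, none of them called. Leaving out Model 57 moved the first TMM value to -3.48 and leaving out Control 43 to -1.23, and the second was -2.50 without QYD 65 and -0.27 without Control 43. Cidec, which fuses small droplets into a large one in white adipocytes, had 3.92, 2.21 and 0.261 CPM in the QYD mice, 0.487, 2.89 and 0.172 CPM in the Model mice and 15.5, 8.91 and 2.42 CPM in the Control mice. Control 43 and 44 were the highest libraries, and Control 45 lay within the QYD and Model range. In Model versus Control the log2 fold change of Cidec was -2.88 ± 0.95 (SE, adjusted p = 0.0303), and -0.69 per library total (adjusted p = 0.471). Against Control, the QYD mice were at -2.03 ± 0.90 (SE, adjusted p = 0.0949), and 0.10 per library total (adjusted p = 0.91). The Model versus Control call was lost without Control 44, Model 56, Model 59 or Control 43, the last at -2.24 (adjusted p = 0.133), and the value was -4.68 (adjusted p = 0.00532) without Model 57. The QYD comparison passed without Model 57 at -2.03 (adjusted p = 0.0447).

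Plin4, a coat protein of small droplets in adipocytes and muscle, had 22.6, 19.5 and 16 CPM in the QYD mice, 8.04, 13.9 and 9.21 CPM in the Model mice and 31, 6.24 and 7.63 CPM in the Control mice. Every QYD library lay above every Model library, and Control 43 alone lay above all others. Plin4 was not called in Model versus Control at -0.51 ± 0.48 (SE, adjusted p = 0.412), and 1.67 per library total (adjusted p = 0.00307). For QYD versus Control the value was 0.39 ± 0.47 (SE, adjusted p = 0.534), and 2.47 per library total (adjusted p = 0.000154). Without Control 43 the second value became 1.49 (adjusted p = 0.00294), a call in the higher direction. Cidea, a droplet protein best known from brown and beige fat, was higher where Cidec was lower in Model versus Control. It had 12, 18 and 21 estimated counts in the QYD mice, 22, 12 and 14 estimated counts in the Model mice and 0, 1 and 0 estimated counts in the Control mice. Every QYD and Model library thus held more counts than any Control library, and 2 Control libraries held none. The summed counts per effective depth gave a Model to Control ratio of 11.3 (exact 95% interval 1.93 to 454) and a QYD to Control ratio of 12.8 (2.2 to 517), intervals that cover counting error only. Cidea was called higher in Model versus Control (adjusted p = 0.0151) and in QYD versus Control (adjusted p = 0.0106). It passed the filter on low counts only through the QYD and Model libraries, where it is high. It could therefore hardly have been called lower there, and the call adds little to the counts themselves. The Model call was lost without Control 43 or Control 45 (adjusted p = 0.0551 and 0.0555).

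The promoters of Lep, Cidec and Plin1 are shown because they alone among the 25 genes with a window hold the letters TTGCNCAA. C/EBP factors, the regulators of fat cell differentiation, are known to bind this form. Windows run from 250 bases before to 50 bases after the RefSeq start site on GRCm38.p6, on the strand of the gene, and capitals mark matches to TTGCNCAA or the looser TTGCNNAA on either strand. Windows were given for 25 of the 34 genes, 33 windows in all.
Lep, chr6:29059971-29060270, plus strand: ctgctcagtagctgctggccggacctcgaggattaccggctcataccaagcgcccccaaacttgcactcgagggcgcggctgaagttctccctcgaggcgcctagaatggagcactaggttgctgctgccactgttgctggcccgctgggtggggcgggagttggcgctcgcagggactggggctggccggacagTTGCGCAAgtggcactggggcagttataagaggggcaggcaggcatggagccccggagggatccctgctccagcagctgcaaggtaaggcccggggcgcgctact
Cidec, chr6:113434715-113435014, minus strand: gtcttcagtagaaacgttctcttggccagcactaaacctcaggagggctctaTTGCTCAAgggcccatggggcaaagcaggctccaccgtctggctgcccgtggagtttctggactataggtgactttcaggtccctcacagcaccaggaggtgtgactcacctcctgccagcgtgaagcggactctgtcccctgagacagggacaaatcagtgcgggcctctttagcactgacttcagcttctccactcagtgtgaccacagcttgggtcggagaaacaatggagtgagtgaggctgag
Plin1, chr7:79732727-79733026, minus strand: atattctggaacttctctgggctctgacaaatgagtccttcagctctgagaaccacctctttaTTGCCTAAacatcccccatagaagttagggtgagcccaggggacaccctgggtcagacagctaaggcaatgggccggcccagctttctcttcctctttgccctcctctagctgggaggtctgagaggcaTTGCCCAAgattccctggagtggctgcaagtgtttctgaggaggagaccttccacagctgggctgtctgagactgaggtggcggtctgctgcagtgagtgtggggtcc
The match lies 55 to 48 bases before the start site in Lep, where it reads the same on both strands, and 198 to 191 bases before it in Cidec. In Plin1 a TTGCNCAA match lies 58 to 51 bases before the start and a TTGCNNAA match 187 to 180 bases before it. TTGCNCAA was found in 9.09% of the windows of the set and in 2.94% of 32851 windows of all genes, and TTGCNNAA, which includes it, in 15.2% and 10.8%. The direct repeat of hexamers spaced by 1 base that PPAR gamma binds with its partner was in 0 of the 33 windows and in 0.0396% of all windows. Other letters searched were AGGTCA, 1 hexamer of that repeat, in 21.2% of the windows of the set and 16.3% of all. TCACNCCAC, a sterol regulatory element, was in 3.03% and 1.24%. CACGTG was in 6.06% and 7.15%, CCAAT in 33.3% and 37.4%, and TATAAA in 12.1% and 13.6%, below the share of all windows. A match describes the letters in the window and is not a measured binding site.

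**Figure D2:**
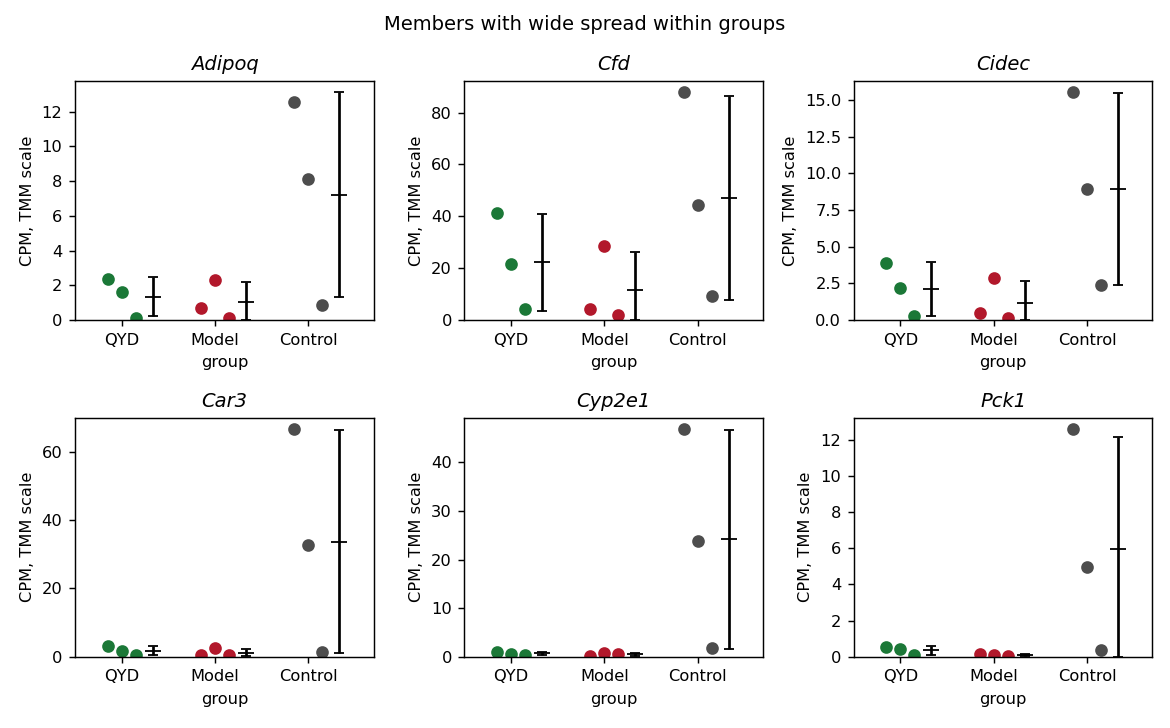
CPM after TMM scaling of Adipoq, Cfd, Cidec, Car3, Cyp2e1 and Pck1 in each mouse (points), with the mean and SD of each group beside them (n = 3, bars cut at 0), the groups running QYD, Model, Control from left to right. In all 6 genes Control 43 and Control 44 are the highest libraries and Control 45 lies near the QYD and Model mice; per library total Adipoq and Cidec did not pass the test in either comparison with Control.

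The lipases that release stored fat went in different directions. Pnpla2, which encodes the triglyceride lipase ATGL (chr7:141455188-141460743), had 92.4, 97.8 and 83.8 CPM in the QYD mice, 81.3, 102 and 99.2 CPM in the Model mice and 44.3, 41.3 and 52.3 CPM in the Control mice. The QYD and Model libraries overlapped with each other and all lay above the Control libraries. The log2 fold change of Pnpla2 was 1.03 ± 0.14 (SE, adjusted p = 0.000231), and 3.18 per library total (adjusted p = 3.78e-08) in Model versus Control. The value in QYD versus Control was 0.99 ± 0.14 (SE, adjusted p = 0.000338), and 3.03 per library total (adjusted p = 6.53e-08). Mgll, the monoglyceride lipase that completes the chain (chr6:88724412-88828360), had 37.1, 33.5 and 32.6 CPM in the QYD mice, 28, 27.9 and 31 CPM in the Model mice and 54.4, 96.5 and 58 CPM in the Control mice. All Control libraries lay above all others on this scale, and below them per library total. Its log2 fold change was -1.27 ± 0.20 (SE, adjusted p = 0.000487), and 0.87 per library total (adjusted p = 0.00233) in Model versus Control. For QYD against Control it was -1.02 ± 0.19 (SE, adjusted p = 0.00201), and 1.02 per library total (adjusted p = 0.000747). Lipe, the hormone-sensitive lipase between them in the chain, had 10.8, 10 and 7.93 CPM in the QYD mice, 9.9, 14.3 and 13.6 CPM in the Model mice and 9.64, 13.9 and 9.79 CPM in the Control mice. The 3 groups overlapped, and the log2 fold change was 0.18 ± 0.20 (SE, adjusted p = 0.492), and 2.32 per library total (adjusted p = 6.66e-07) in Model versus Control. The QYD versus Control value was -0.21 ± 0.20 (SE, adjusted p = 0.417), and 1.83 per library total (adjusted p = 6.86e-06). Adrb3, the adrenergic receptor that drives lipolysis in mouse fat, had 0 to 1 estimated counts in QYD, 0 to 1 in Model and 0 to 3 in Control and was not tested.

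Among the uptake genes, Lpl was called lower on both scales, although its groups overlapped per library total. Lpl, the lipoprotein lipase that frees fatty acids from circulating triglyceride (chr8:68880555-68906932), had 15, 11.4 and 10.2 CPM in the QYD mice, 11.2, 13.1 and 9 CPM in the Model mice and 59.8, 82 and 85.9 CPM in the Control mice. The Control libraries all lay far above the QYD and Model libraries after TMM scaling, while per library total QYD 65 and Model 57 lay above Control 43. On the log2 scale it differed by -2.77 ± 0.20 (SE, adjusted p = 4.91e-06), and -0.62 per library total (adjusted p = 0.0371) in Model versus Control. Against Control, the QYD mice were at -2.64 ± 0.20 (SE, adjusted p = 7.46e-06), and -0.59 per library total (adjusted p = 0.0454). Acsl1, which activates long fatty acids with coenzyme A, had 19.4, 14.1 and 10.5 CPM in the QYD mice, 11.2, 17.7 and 11.6 CPM in the Model mice and 49.1, 30.9 and 22.5 CPM in the Control mice. Every Control library lay above the Model and QYD libraries, but per library total the groups overlapped. In Model versus Control Acsl1 had a log2 fold change of -1.34 ± 0.30 (SE, adjusted p = 0.00468), and 0.84 per library total (adjusted p = 0.0236). For QYD versus Control the value was -1.21 ± 0.30 (SE, adjusted p = 0.00833), and 0.87 per library total (adjusted p = 0.0193).

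Cd36, a fatty acid translocase, had 32.4, 24.2 and 27.6 CPM in the QYD mice, 18.1, 23.3 and 12 CPM in the Model mice and 26.1, 26.1 and 27 CPM in the Control mice. The Model libraries all lay below the QYD and Control libraries, which overlapped. Cd36 narrowly missed the threshold in Model versus Control at -0.57 ± 0.21 (SE, adjusted p = 0.0507), and 1.61 per library total (adjusted p = 5.73e-05). Without Model 57 it passed at -0.81 (adjusted p = 0.00927). The value in QYD versus Control was 0.09 ± 0.21 (SE, adjusted p = 0.757), and 2.14 per library total (adjusted p = 4.33e-06). Fabp4, the fatty acid binding protein of adipocytes, endothelium and macrophages, was the gene of the set with the highest level per transcript length, at 184 ± 38.9 FPKM in QYD, 129 ± 39.8 FPKM in Model and 38.3 ± 9.43 FPKM in Control (SD, n = 3 each). It had 63.6, 60.6 and 54 CPM in the QYD mice, 35.8, 50.3 and 30.5 CPM in the Model mice and 62.8, 57.6 and 35.7 CPM in the Control mice. All QYD libraries lay above the Model libraries, and Control 45 lay within the Model range. Fabp4 was not called in Model versus Control at -0.42 ± 0.22 (SE, adjusted p = 0.155), and 1.76 per library total (adjusted p = 1.65e-05). Without Control 45 or Model 57 it passed at -0.63 (adjusted p = 0.0301) and -0.65 (adjusted p = 0.0406). The QYD versus Control value was 0.19 ± 0.22 (SE, adjusted p = 0.516), and 2.25 per library total (adjusted p = 1.84e-06). Slc2a4, the insulin-responsive glucose transporter, and Aqp7, the glycerol channel of adipocytes, were not tested. Slc2a4 had 7 to 10 estimated counts in QYD, 8 to 12 in Model and 4 to 6 in Control, and Aqp7 had 1 to 2 in QYD, 0 to 1 in Model and 2 to 3 in Control.

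Of the transcription regulators, Thrsp was the one called on the TMM scale. Thrsp, the thyroid hormone responsive protein Spot 14 that goes with fatty acid synthesis, had 0.935, 1.27 and 1.34 CPM in the QYD mice, 0.601, 0.715 and 0.655 CPM in the Model mice and 3.63, 2.93 and 2.67 CPM in the Control mice. After TMM scaling the 3 groups did not overlap, with Control highest and Model lowest. Per library total the order was different: the QYD libraries lay above the Control libraries, and the Model and Control libraries overlapped. The log2 fold change of Thrsp was -2.22 ± 0.27 (SE, adjusted p = 0.00013), and -0.07 per library total (adjusted p = 0.831) in Model versus Control. Between QYD and Control it was -1.38 ± 0.26 (SE, adjusted p = 0.00187), and 0.64 per library total (adjusted p = 0.0539). Cebpa, a C/EBP factor of adipocytes, hepatocytes and myeloid cells, had 14.4, 13 and 12.2 CPM in the QYD mice, 11.6, 12.3 and 14.5 CPM in the Model mice and 17.1, 16 and 12.5 CPM in the Control mice. Its groups overlapped, with a log2 fold change of -0.25 ± 0.15 (SE, adjusted p = 0.207), and 1.90 per library total (adjusted p = 4.34e-07) in Model versus Control and -0.20 ± 0.15 (SE, adjusted p = 0.31), and 1.85 per library total (adjusted p = 6.29e-07) in QYD versus Control. Pparg, the nuclear receptor that directs adipocyte differentiation, had 2.16, 2.04 and 2.46 CPM in the QYD mice, 1.95, 2.05 and 1.28 CPM in the Model mice and 3.91, 2.93 and 2.03 CPM in the Control mice. Only Control 45 overlapped the QYD and Model libraries. Pparg was not called in Model versus Control at -0.74 ± 0.28 (SE, adjusted p = 0.0555), and 1.43 per library total (adjusted p = 0.000691), and without Control 45 it passed at -0.95 (adjusted p = 0.0245). The QYD versus Control value was -0.41 ± 0.28 (SE, adjusted p = 0.267), and 1.62 per library total (adjusted p = 0.000238).

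The core enzymes of fatty acid synthesis differed little on the TMM scale, apart from the desaturase. Acly, Acaca and Fasn were higher in both injured groups per library total, as were 94% of all tested genes in Model versus Control and 93.8% in QYD versus Control. The medians over all tested genes on that scale were 2.19 and 2.09. Acly, which makes acetyl-CoA from citrate, had 38.6, 35 and 35.3 CPM in the QYD mice, 38.5, 43.1 and 39.1 CPM in the Model mice and 34, 41.1 and 42.6 CPM in the Control mice. All 3 groups overlapped, and the log2 fold change was 0.04 ± 0.12 (SE, adjusted p = 0.837), and 2.18 per library total (adjusted p = 1.42e-07) in Model versus Control. Against Control, the QYD mice were at -0.11 ± 0.12 (SE, adjusted p = 0.487), and 1.92 per library total (adjusted p = 4.62e-07). Acaca, the acetyl-CoA carboxylase of the first committed step, ranged over 8.53 to 10.5 CPM in QYD, 8.42 to 10.3 in Model and 8.01 to 9.8 in Control, with a log2 fold change of 0.06 ± 0.15 (SE, adjusted p = 0.767), and 2.22 per library total (adjusted p = 4.51e-07) in Model versus Control. Fasn, the fatty acid synthase, had 21.6, 19.6 and 19.7 CPM in the QYD mice, 22.8, 19.6 and 18.8 CPM in the Model mice and 26.8, 32 and 21.7 CPM in the Control mice. The QYD libraries lay below the Control libraries, and Model 56 overlapped with Control 45. Its log2 fold change was -0.39 ± 0.15 (SE, adjusted p = 0.0496), and 1.77 per library total (adjusted p = 1.81e-06) in Model versus Control. For QYD versus Control the value was -0.40 ± 0.15 (SE, adjusted p = 0.0476), and 1.64 per library total (adjusted p = 4e-06). Each Fasn call was lost in 7 of the 9 fits that left out 1 library (all but those without Control 45 or Model 56), and turned to the higher direction per library total.

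Scd1, which puts the first double bond into stearate and palmitate (chr19:44394450-44407709), had 24.5, 24.4 and 9.27 CPM in the QYD mice, 8.84, 19.3 and 7.69 CPM in the Model mice and 50.9, 137 and 45.8 CPM in the Control mice. Every Control library lay above all others, but per library total the groups overlapped, and Control 44 stood far above its group. In Model versus Control the log2 fold change of Scd1 was -2.70 ± 0.52 (SE, adjusted p = 0.00178), and -0.54 per library total (adjusted p = 0.306). The value in QYD versus Control was -2.002 ± 0.50 (SE, adjusted p = 0.00878), and 0.07 per library total (adjusted p = 0.894). Without Control 44 these became -2.01 (adjusted p = 0.00778) and -1.31 (adjusted p = 0.0486).

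The genes of glycerol supply and triglyceride assembly held 1 of the steepest falls of the set and a rise. Pck1, which supplies glycerol phosphate in fat and glucose in liver and kidney (chr2:173153073-173159274), had 0.555, 0.436 and 0.0745 CPM in the QYD mice, 0.143, 0.119 and 0.0345 CPM in the Model mice and 12.6, 4.97 and 0.381 CPM in the Control mice. The estimated counts of Pck1 were 19, 13 and 2 in QYD, 5, 4 and 1 in Model and 90, 39 and 3 in Control. The Control libraries spread widely, and QYD 65 and QYD 66 lay above Control 45. Per library total Model 56 and Model 57 lay above Control 45 as well, so the groups overlapped. On the log2 scale it differed by -5.79 ± 1.03 (SE, adjusted p = 0.00115), and -3.61 per library total (adjusted p = 0.00323) in Model versus Control. For QYD against Control it was -4.00 ± 0.88 (SE, adjusted p = 0.00441), and -1.90 per library total (adjusted p = 0.0442). Without Control 43 these became -4.65 (adjusted p = 0.00587) and -2.86 (adjusted p = 0.0305), and limma-voom gave the QYD comparison an adjusted p of 0.0573. Gpd1, the cytosolic glycerol phosphate dehydrogenase, had 14, 12.1 and 9.72 CPM in the QYD mice, 9.5, 10.2 and 11.4 CPM in the Model mice and 20, 16.7 and 13.1 CPM in the Control mice. The Model libraries lay below the Control libraries, and QYD 65 overlapped with Control 45. Gpd1 had a log2 fold change of -0.68 ± 0.18 (SE, adjusted p = 0.0112), and 1.48 per library total (adjusted p = 2.15e-05) in Model versus Control. The QYD versus Control value was -0.47 ± 0.18 (SE, adjusted p = 0.0559), and 1.59 per library total (adjusted p = 1.11e-05). The Model call was lost without Control 43 at -0.52 (adjusted p = 0.0501), and the QYD comparison passed without Control 45 at -0.61 (adjusted p = 0.0216) and without QYD 65 at -0.60 (adjusted p = 0.0379).

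Dgat2, which adds the last acyl chain to make triglyceride (chr7:99153663-99182713), had 5.44, 4.56 and 3.58 CPM in the QYD mice, 5.15, 5.66 and 4.04 CPM in the Model mice and 2.24, 1.53 and 0.763 CPM in the Control mice. Every QYD and Model library lay above every Control library. The log2 fold change of Dgat2 was 1.73 ± 0.32 (SE, adjusted p = 0.00145), and 3.89 per library total (adjusted p = 2.57e-07) in Model versus Control. Against Control, the QYD mice were at 1.60 ± 0.32 (SE, adjusted p = 0.00266), and 3.65 per library total (adjusted p = 5.27e-07). Agpat2, the acyltransferase that makes phosphatidate, had 11.5, 11.6 and 13.4 CPM in the QYD mice, 12, 11.1 and 11.7 CPM in the Model mice and 10.8, 11.5 and 10.9 CPM in the Control mice. The 3 groups overlapped, with a log2 fold change of 0.07 ± 0.12 (SE, adjusted p = 0.667), and 2.22 per library total (adjusted p = 5.36e-08) in Model versus Control. For QYD versus Control the value was 0.14 ± 0.12 (SE, adjusted p = 0.387), and 2.16 per library total (adjusted p = 8.94e-08).

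**Figure D3:**
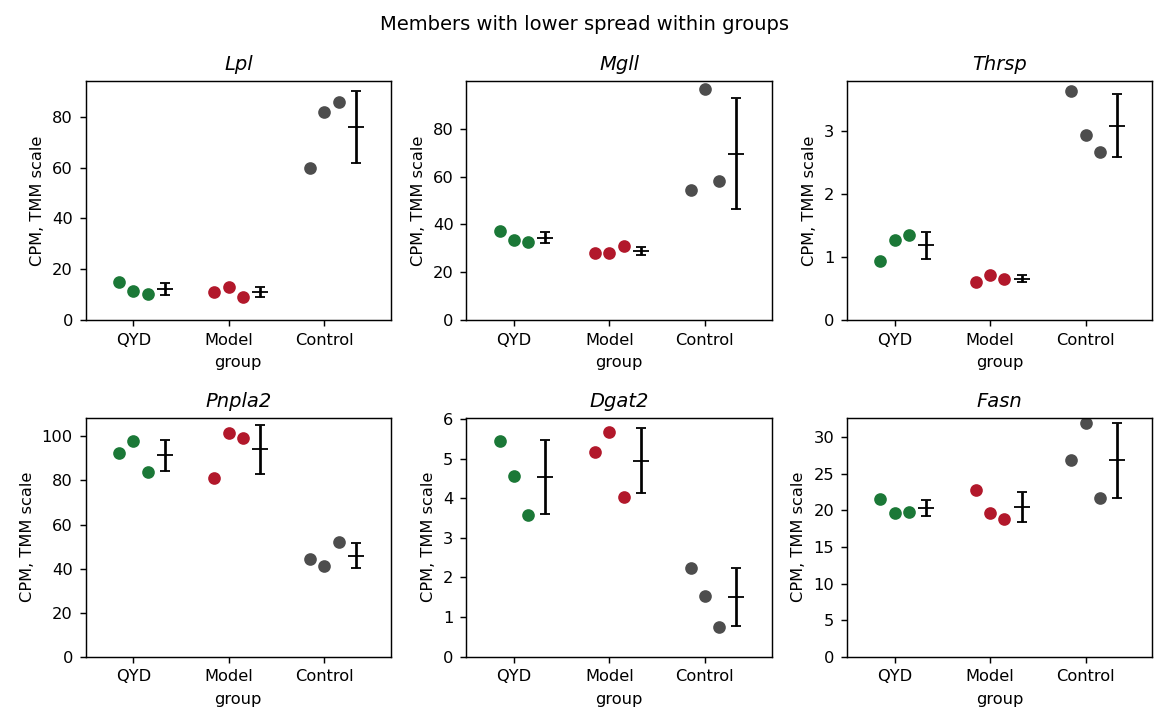
CPM after TMM scaling of Lpl, Mgll, Thrsp, Pnpla2, Dgat2 and Fasn in each mouse (points), with the mean and SD of each group beside them (n = 3), the groups running QYD, Model, Control from left to right. All QYD and Model points lie below the Control points for Lpl, Mgll and Thrsp and above them for Pnpla2 and Dgat2; per library total Mgll and Fasn were called higher in QYD and in Model than in Control, as were Pnpla2 and Dgat2.

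Car3 and Cyp2e1, a carbonic anhydrase and a cytochrome P450 that are abundant in mouse fat and liver, fell furthest together with Pck1. Car3 (chr3:14863538-14872381) had 3.16, 1.78 and 0.447 CPM in the QYD mice, 0.658, 2.59 and 0.517 CPM in the Model mice and 66.7, 32.9 and 1.53 CPM in the Control mice. Control 43 and 44 lay far above every QYD and Model library, while Control 45 lay below QYD 65, QYD 66 and Model 57. Its log2 fold change was -4.72 ± 1.01 (SE, adjusted p = 0.00343), and -2.51 per library total (adjusted p = 0.0197) in Model versus Control. The value in QYD versus Control was -4.18 ± 0.97 (SE, adjusted p = 0.00588), and -2.05 per library total (adjusted p = 0.0431). Without Control 43 these became -3.76 (adjusted p = 0.0174) and -3.22 (adjusted p = 0.0302), without Model 57 the first was -5.81 (adjusted p = 0.00433), and without QYD 65 the second was -4.88 (adjusted p = 0.0141). With limma-voom neither Car3 comparison passed (adjusted p = 0.059 and 0.08).

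Cyp2e1 (chr7:140763819-140774990) had 0.935, 0.67 and 0.447 CPM in the QYD mice, 0.114, 0.744 and 0.586 CPM in the Model mice and 46.8, 23.8 and 1.78 CPM in the Control mice. After TMM scaling all Control libraries lay above all others, Control 45 by the least, and per library total Control 45 lay below QYD 65, QYD 66, Model 57 and Model 59. On the log2 scale it differed by -5.65 ± 0.91 (SE, adjusted p = 0.000624), and -3.47 per library total (adjusted p = 0.00115) in Model versus Control. In QYD versus Control it was -5.10 ± 0.87 (SE, adjusted p = 0.00103), and -3.01 per library total (adjusted p = 0.00246). Without Control 43 these became -4.73 (adjusted p = 0.00279) and -4.19 (adjusted p = 0.00471). Sncg, gamma synuclein, a neuronal protein also made by adipocytes, was not tested. It had 17, 3 and 8 estimated counts in QYD, 6, 7 and 7 in Model and 3, 7 and 2 in Control.

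**Figure D4:**
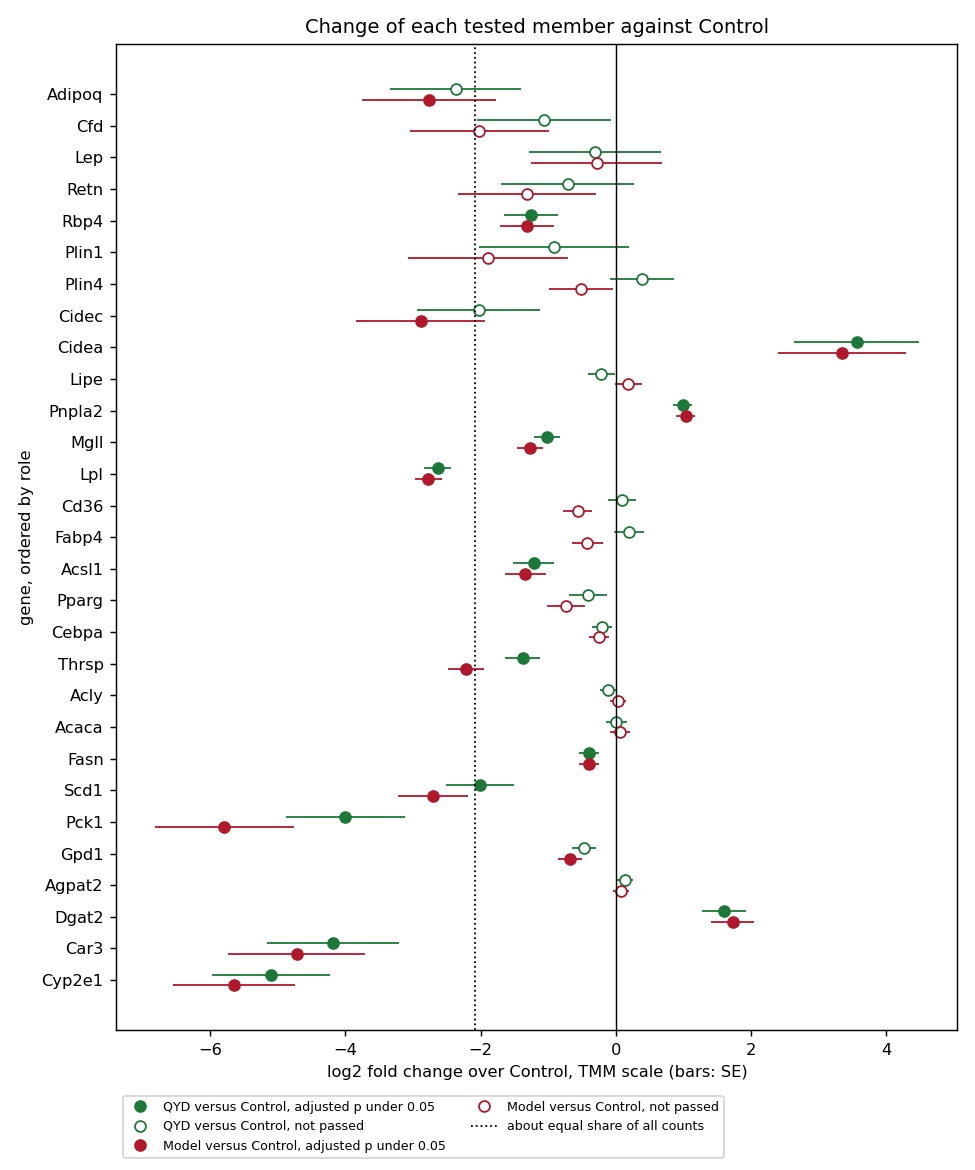
Log2 fold change on the TMM scale of the 29 tested genes in QYD versus Control (upper point of each pair) and Model versus Control (lower point), with bars for the SE, filled points for an adjusted p under 0.05, and a dotted line where a gene would keep about an equal share of all counts. Lpl, Pck1, Car3 and Cyp2e1 lie left of the dotted line in both comparisons and were also called lower per library total, genes between that line and 0 turn positive per library total, and the value of Cidea rests on 1 count in all Control libraries.

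The question of the decoction is put by QYD versus Model. The median log2 fold change of the 29 genes was 0.25, against 0.01 over all genes, and the smallest adjusted p among them was 0.826. Without adjustment, 3 of the 29 and 750 of all 12828 genes had a p under 0.05. DESeq2 called 0 genes and limma-voom 1, which is no member. In 5 of the 29 (Plin4, Mgll, Cd36, Fabp4 and Thrsp) the QYD libraries all lay above the Model libraries, and in 0 all below, where 8.56% and 8.18% of all tested genes did so. The log2 fold changes were 0.66 ± 0.20 (SE, adjusted p = 0.826) for Cd36, 0.61 ± 0.22 (SE, adjusted p = 0.826) for Fabp4 and 0.84 ± 0.26 (SE, adjusted p = 0.826) for Thrsp. Of the 5, Thrsp alone had groups that did not overlap per library total as well. Plin4 was at 0.90 ± 0.44 (SE, adjusted p = 0.826) and Mgll at 0.25 ± 0.19 (SE, adjusted p = 0.858). Among the least certain values were 1.79 ± 1.19 (SE, adjusted p = 0.826) for Pck1 and 0.95 ± 0.99 (SE, adjusted p = 0.892) for Cfd. The Cfd value was 2.85 without Model 57 and 0.15 without QYD 65. A value that misses the threshold does not show that the QYD and Model mice were alike.

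Mice of 1 group differed from each other in these genes more than in most. The median within-group SD of log2(CPM + 0.5) over the 29 genes was 0.25 in QYD, 0.28 in Model and 0.44 in Control, while over all tested genes it was 0.15 in QYD, 0.16 in Model and 0.26 in Control. In each group 10 of the 29 (34.5%) exceeded the 90th percentile of all tested genes. Counting error, which is larger for low genes, is part of this spread. Adipoq was 20.9 times higher in the highest than in the lowest QYD library, 22.4 times in Model and 14.1 times in Control. The libraries did not share the extremes evenly. QYD 65 was the highest of its group in 23 of the 29 genes and QYD 68 the lowest in 22. Model 57 was the highest in 22, with Model 59 lowest in 14 and Model 56 in 12. Control 43 was the highest in 17 and Control 45 the lowest in 20. Over all tested genes each library was the highest or the lowest of its group in about the same share of genes, from 28.2% to 37.9%.

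The summed level of the 12 genes taken here as defining adipocytes (Adipoq, Cfd, Lep, Retn, Plin1, Plin4, Cidec, Lipe, Adrb3, Fabp4, Aqp7 and Pparg) was 150.2, 119 and 85.1 CPM in the QYD mice, 61.7, 117 and 57 CPM in the Model mice and 228, 146 and 68.9 CPM in the Control mice. The means gave a log2 ratio of 0.59 in QYD to Model, -0.91 in Model to Control and -0.32 in QYD to Control, with overlapping groups in each. Fabp4, which is also active in endothelium and macrophages, is part of this sum. In a sum chosen after seeing the data that leaves Fabp4 out, the level was 86.6, 58.6 and 31.1 CPM in the QYD mice, 25.9, 66.9 and 26.5 CPM in the Model mice and 165, 88.6 and 33.2 CPM in the Control mice, and the log2 ratios were 0.56 in QYD to Model, -1.27 in Model to Control and -0.70 in QYD to Control. Lipe and Plin4 are part of both sums. In Model 59 they stood at 13.6 and 9.21 CPM, against 0.103 CPM for Adipoq, 0.103 CPM for Plin1 and 0.172 CPM for Cidec. The tested genes of the sum had log2 fold changes from -2.88 (Cidec) to 0.18 (Lipe) in Model versus Control, so the sum does not describe each of them. Per library total the ratios of all 12 genes to Control turned positive, at 1.28 for Model and 1.77 for QYD. Leaving out 1 library moved the QYD to Control ratio of all 12 genes on the TMM scale between -0.66 and 0.14, where the positive value is without Control 43. B cell markers, genes of a cell type found in the lymphoid tissue of abdominal fat, ran high or low in some of the same libraries. Their summed level over 6 genes was 10.4, 17 and 0.894 CPM in the QYD mice, 0.572, 9.44 and 0.552 CPM in the Model mice and 12.9, 2.42 and 3.69 CPM in the Control mice. Of the 6 genes, 2 were at 0 in Control 44 and in Control 45, and 1 in QYD 68 and in Model 56. QYD 65, QYD 66, Model 57 and Control 43 were high in both sums, and QYD 68, Model 56 and Model 59 were low in both. Control 44 was high in the adipocyte sum and low in the B cell sum. Control 45 was the lowest of its group in the adipocyte sum but lay above Control 44 in the B cell sum. The summed level of the 5 mesothelial genes was 9.38, 8.95 and 5.66 CPM in the QYD mice, 9.16, 13.2 and 4.93 CPM in the Model mice and 21.2, 18.5 and 8.01 CPM in the Control mice, with none of the 5 at 0 in any library, and it ranked the libraries of each group as the 12-gene sum did. The summed levels of the macrophage list and of the stromal and preadipocyte list ranked the QYD and Model libraries in the same order too. They ranked the Control libraries otherwise, at 55.6, 36.8 and 56.2 CPM for macrophage genes and 394, 268 and 322 CPM for stromal genes. The endothelial sum followed that order in no group. Further fat cell genes outside the set, described below, summed to 377, 304 and 262 CPM in the QYD mice. Their sums were 282, 344 and 245 CPM in the Model mice and 262, 284 and 257 CPM in the Control mice. This sum ranked the QYD and Model libraries as the 12-gene sum did. In Control its range was narrow, with Control 44 highest, and the 3 groups overlapped. The part of adjoining tissue in these results was not tested.

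**Figure D5:**
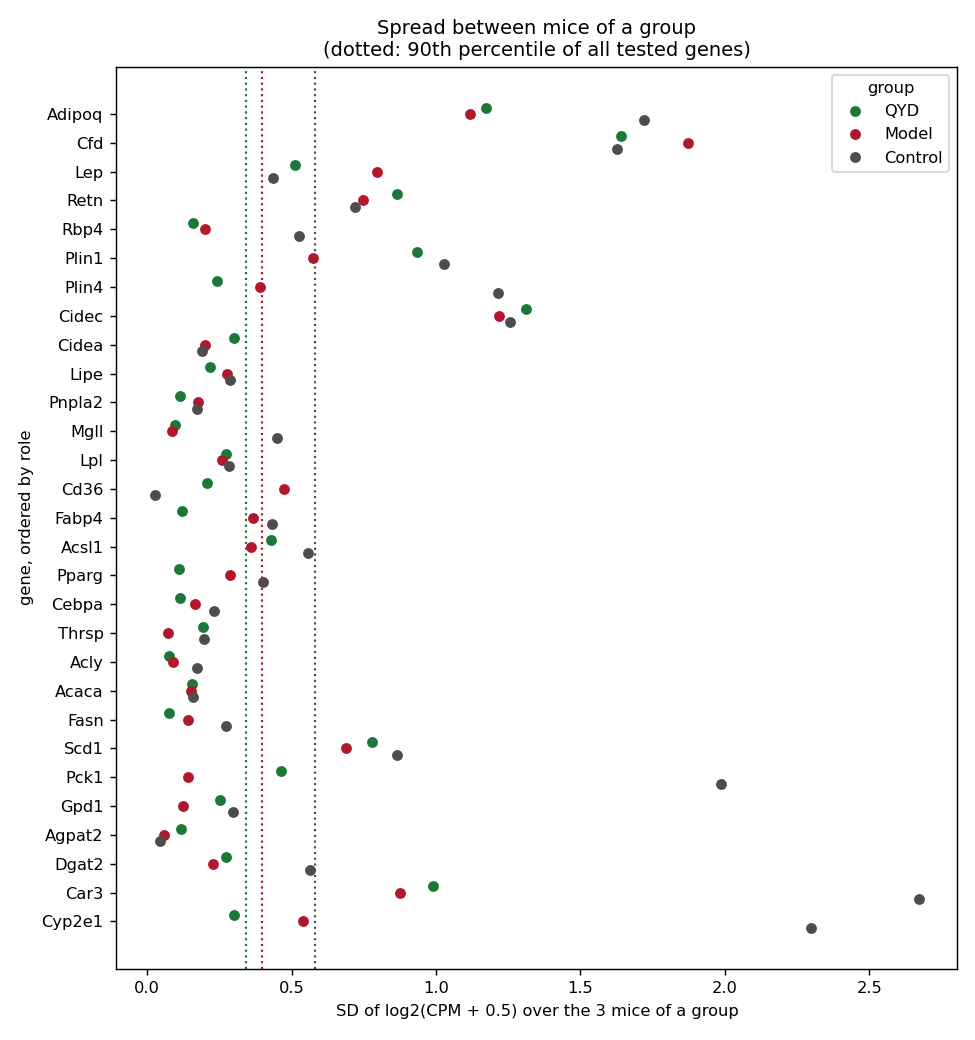
SD of log2(CPM + 0.5) over the 3 mice of each group for each tested gene, in QYD, Model and Control, with a dotted line in the colour of the group at the 90th percentile of all tested genes (0.343 in QYD, 0.398 in Model and 0.582 in Control). Adipoq, Cfd, Retn, Plin1, Cidec, Scd1 and Car3 lie past the line in all 3 groups, and Acly, Acaca, Fasn and Agpat2 lie short of it in all 3.

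A list of further fat cell genes outside the set was examined beside it. Of 20 tested, 5 were higher and 10 lower in Model versus Control (median -1.02), and again 5 and 10 in QYD versus Control (median -0.86), against 21.3% higher and 21.3% lower over all tested genes for Model and 20.5% and 20.3% for QYD. Per library total these counts were 13 higher and 2 lower for Model and 15 and 1 for QYD, where 94% of all tested genes were higher and 0.943% lower for Model, and 93.8% and 0.99% for QYD. Ces1d, a carboxylesterase with lipase activity, had a log2 fold change of -3.96 ± 0.43 (SE, adjusted p = 6.15e-05), and -1.81 per library total (adjusted p = 0.00132) in Model versus Control. Klb, the co-receptor of fibroblast growth factor 21, was at -2.38 ± 0.28 (SE, adjusted p = 0.0001), and -0.25 per library total (adjusted p = 0.426). Pde3b, the phosphodiesterase by which insulin restrains lipolysis, was at -1.62 ± 0.17 (SE, adjusted p = 4.35e-05), and 0.53 per library total (adjusted p = 0.0165), so its direction depends on the scale. The 5 called higher in Model versus Control were Plin2 at 2.41 (adjusted p = 0.00101), Orm1 at 2.07 (adjusted p = 0.00629) and Lpin1 at 1.04 (adjusted p = 0.00707), with Abhd5 at 0.89 (adjusted p = 0.000128) and Angptl4 at 0.83 (adjusted p = 0.00164). All 5 were called higher per library total as well. Of 17 tested regulators and enzymes of lipogenesis, 4 were higher and 3 lower in Model versus Control (median 0.04), and 3 and 2 in QYD versus Control (median -0.0018). Per library total 16 were higher and 0 lower in either comparison, where 94% and 93.8% of all tested genes were higher. Me1, the malic enzyme that supplies NADPH, was at 1.52 ± 0.21 (SE, adjusted p = 0.00026), and 3.67 per library total (adjusted p = 4.67e-08). Mlxipl, the carbohydrate response factor ChREBP, was at -1.84 ± 0.29 (SE, adjusted p = 0.000515), and 0.30 per library total (adjusted p = 0.419). Mid1ip1, the partner of Spot 14, was at -0.76 ± 0.15 (SE, adjusted p = 0.00201), and 1.39 per library total (adjusted p = 6.15e-06). Of 5 tested brown fat genes 1 was higher and 1 lower in either comparison on the TMM scale, with Dio2, the deiodinase that activates thyroid hormone, at 3.90 ± 0.78 (SE, adjusted p = 0.00233), and 5.98 per library total (adjusted p = 8.57e-07). Cpt1b was called lower in Model versus Control, at -1.28 ± 0.45 (SE, adjusted p = 0.0389), and 0.85 per library total (adjusted p = 0.126). In the same comparison Ppargc1a was at -0.91 (adjusted p = 0.084), Ebf2 at -0.71 (adjusted p = 0.377) and Prdm16 at -0.03 (adjusted p = 0.943). Per library total these were at 1.23, 1.42 and 2.10. In QYD versus Control the gene called lower was Ppargc1a, at -1.24 (adjusted p = 0.0289).

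Markers of other cells were counted in the same way, against 21.3% of all tested genes higher and 21.3% lower in Model versus Control. In Model versus Control the call was higher for 3 of 8 macrophage genes (1 lower), 2 of 8 endothelial genes (0 lower), 3 of 9 stromal and preadipocyte genes (2 lower) and 6 of 7 neutrophil genes (0 lower). In the same comparison 10 of 10 acinar genes and 6 of 8 islet genes were lower, and 1 of 5 mesothelial genes was lower. Per library total, where 94% of all tested genes were higher and 0.943% lower, all 8 macrophage, all 8 endothelial, 8 of the 9 stromal and all 7 neutrophil genes were higher, 8 acinar genes were lower and 2 higher, and 3 islet genes were higher and 0 lower. Of the hepatocyte list 2 genes were tested and both were higher, with a summed level over the 9 genes of the list in the table of 1.75, 6.23 and 6.48 CPM in the QYD mice, 4.66, 6.1 and 7.17 CPM in the Model mice and 1.82, 2.42 and 3.69 CPM in the Control mice, and 1 to 5 of the 9 at 0 in each library. None of 8 skeletal muscle genes passed the filter on low counts. The part of these cells in the levels of Fabp4, Cd36, Lpl and the synthesis enzymes was not tested. In QYD versus Model 0 genes of any of these lists were called.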

How the data were processed

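Messenger RNA of pancreas was sequenced from 9 mice, 3 per group, after oligo(dT) selection per the labels' protocols. The groups were taken from the sample titles, and the treatment label of the QYD mice spells the decoction QTD. Build GRCm38.p6 and the tools RSEM 1.2.12, Bowtie2 2.2.5 and HISAT2 2.0.4 are listed in the submitters' processing notes, with no roles. The strand setting was not given in the sources used here, so reads of overlapping genes on opposite strands cannot be told apart. The authors deposited read counts per gene and library, per the file headers, taken here as RSEM's estimated counts (93.5% are whole). FPKM values, scaled by the authors to gene length and library total, were deposited in the same table and serve here only to compare genes.

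Tests used edgeR 4.0.16 (R 4.3.3) on rounded estimated counts: default expression filter (12828 genes kept, 4304 removed), TMM scaling, and 1 quasi-likelihood model of the 9 libraries by group, and Benjamini-Hochberg adjustment at 0.05. Adjusted p-values always cover all tested genes. The SE is the log2 fold change divided by the square root of F, and the common biological coefficient of variation was 0.175. The code was tested on simulated data. No pair of libraries of a group agreed within sampling noise. The p-values set each difference against a within-group spread estimated from all 9 libraries, with information shared between genes. Leaving out a library of 1 group can therefore change calls between the other groups. The p-values rest on 3 samples per group.

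The members and lists were chosen with earlier results of these data known, so list counts are descriptions. Every-library values are given for the 3 highest genes of each role and for each gene called against Control, and the other genes by range. From the lists of further genes up to 3 with the smallest p in Model versus Control and a mean of at least 1 CPM are named. Named as well are the further fat cell genes called higher in Model versus Control and all tested brown fat genes. Promoters are RefSeq's for GRCm38.p6, and 17031 of 17132 gene identifiers matched RefSeq. Alternatives were library size alone, RLE scaling, no low-count filter, TMM leaving out the 50 most abundant genes, only the compared groups, DESeq2 1.42.0, limma-voom (limma 3.58.1), another pseudocount, leaving out each library, and, chosen after seeing the data, the summed adipocyte level without Fabp4.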

Additional observations from a re-analysis of the deposited data

How the results depend on the processing

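Scaling by library size alone moved most results. It called 12185 genes in Model versus Control and 12155 in QYD versus Control, with 16 members higher and 4 lower in each. Of all tested genes 94% were higher and 0.943% lower in Model versus Control, and 93.8% and 0.99% in QYD versus Control. On this scale the summed adipocyte level had log2 ratios of 1.28 and 1.77. In Model versus Control the log2 fold change turned to 0.84 for Rbp4, 1.67 for Plin4, 0.87 for Mgll, 1.61 for Cd36, 1.76 for Fabp4, 0.84 for Acsl1, 1.43 for Pparg, 1.90 for Cebpa, 1.77 for Fasn and 1.48 for Gpd1. In QYD versus Control it turned to 0.77 for Rbp4, 1.83 for Lipe, 1.02 for Mgll, 0.87 for Acsl1, 1.62 for Pparg, 1.85 for Cebpa, 0.64 for Thrsp, 1.92 for Acly, 1.64 for Fasn, 0.069 for Scd1 and 1.59 for Gpd1. Under the other alternatives no called member changed direction. Fasn lost both calls with limma-voom, with no filter and with only the compared groups, and Cd36 passed in Model versus Control with RLE scaling, DESeq2, limma-voom and TMM without the 50 most abundant genes. In QYD versus Control, Gpd1 passed with RLE scaling and DESeq2, and Adipoq and Cidec with only the compared groups; the cause was not tested. Leaving Fabp4 out of the summed adipocyte level, chosen after seeing the data, gave log2 ratios of 0.56 in QYD to Model, -1.27 in Model to Control and -0.70 in QYD to Control. In QYD versus Model limma-voom called 1 gene, no member, and the other alternatives called 0.

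Leaving out 1 library gave 4583 to 5307 genes in Model versus Control, 4237 to 5139 in QYD versus Control and 0 in QYD versus Model. Members called lower in Model versus Control numbered 8 (without Control 43) to 16 (without Model 57), and higher 2 to 3. In QYD versus Control 8 to 12 were lower and 3 to 4 higher, the fourth being Plin4 without Control 43. The summed adipocyte level ranged from -1.31 to -0.45 in Model versus Control, from 0.38 to 0.99 in QYD versus Model and from -0.66 to 0.14 in QYD versus Control. No paired analysis was possible because the groups compared share no replicate numbers. Depth limits Adipoq, Lep, Retn, Rbp4, Plin1, Cidea, Pck1 and the 4 untested members most, which had few counts in many libraries.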

Other observations

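Within a library, the ratio of 1 gene to Adipoq does not depend on the scaling between libraries. These ratios were examined after the values were seen, and no test was made. The ratio of Cyp2e1 to Adipoq in estimated counts was 0.4, 0.417 and 4 in the QYD mice, 0.167, 0.321 and 5.67 in the Model mice and 3.72, 2.92 and 2 in the Control mice. The libraries at 4 and 5.67 are QYD 68 and Model 59, each with 3 Adipoq counts. The ratio of Car3 to Adipoq was 1.35, 1.1 and 4 in the QYD mice, 0.958, 1.12 and 5 in the Model mice and 5.3, 4.03 and 1.71 in the Control mice. With those libraries included, the QYD and Model ranges overlapped with the Control range in both ratios. Cidec to Adipoq, a ratio of 2 adipocyte products, was 1.68, 1.38 and 2.33 in the QYD mice, 0.708, 1.24 and 1.67 in the Model mice and 1.23, 1.09 and 2.71 in the Control mice, with overlapping groups. The ratio of Cfd to Adipoq was 17.7, 13.3 and 36.7 in the QYD mice, 6.29, 12.3 and 17.7 in the Model mice and 6.98, 5.42 and 10.4 in the Control mice, where QYD 68 and Model 59 again rest on 3 Adipoq counts and Control 45 on 7.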
